A study of Mus musculus with 24 samples.

Results

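The genes described here are 10 genes of the endoplasmic reticulum (ER) stress response: *Hspa5*, *Hsp90b1*, *Calr*, *Pdia4*, *Sdf2l1*, *Dnajb9*, *Herpud1*, *Atf4*, *Ddit3* and *Creb3l3*. Their members on the array were found by gene symbol, as every probe set that the probe-to-gene table assigns to 1 of these symbols, which gave 20 of the 45101 probe sets (10 of the 13006 genes measured). A total of 18 of the 20, covering all 10 genes, passed the minimum signal of 20, and the 2 others, 1 of *Atf4* and 1 of *Pdia4*, lay below 15 on every array. Each gene is represented below by its brightest probe set, and in comparisons of 2 groups the others are given where their log2 fold change differed from it by more than 0.3.

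The samples were liver and duodenum of 12 male mice of 7 weeks, with 1 Affymetrix Mouse Genome 430 2.0 array per mouse and tissue and 3 arrays in each of 8 groups. The groups were *Hfe*-/- mice of the DBA/2 strain (D2 KO), wild-type DBA/2 mice (D2 WT), *Hfe*-/- mice of the C57BL/6 strain (B6 KO) and wild-type C57BL/6 mice (B6 WT), in each tissue. All mice were kept on the same diet and fasted before sampling. The knockout was present in all cells, and the knockout mice were bred in the study's own facility whereas the wild-type mice were purchased, so that the mouse's source and its genotype cannot be told apart. The design asks which genes respond to loss of *Hfe*, the gene mutated in most hereditary hemochromatosis, and whether D2 mice, a strain known to load more iron than B6 when *Hfe* is lost, respond differently. Values are MAS5 signals, a linear brightness per probe set that is not comparable between genes.

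The ER folds secreted and membrane proteins. When unfolded proteins accumulate there, the sensors IRE1 (*Ern1*), PERK (*Eif2ak3*) and ATF6 start the unfolded protein response: ATF6 and the IRE1 product XBP1 switch on chaperones, folding enzymes and the machinery that removes misfolded proteins, and PERK favours translation of the transcription factor ATF4, which acts upstream of CHOP (*Ddit3*). Hepatocytes and pancreatic acinar cells secrete large amounts of protein and are rich in ER. In mouse liver, the ER-bound factor CREBH (*Creb3l3*) is also known to act on the hepcidin gene *Hamp*, which ties this response to iron.

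The arrays had been scaled alike (by the authors, to the same mean), with median signals of 15.8 to 21.0 in liver and 20.1 to 23.4 in duodenum. The *Hfe* signal was 70.4 to 98.8 in KO livers and 434 to 691 in WT livers, and 15.7 to 45.1 in KO duodena and 76.6 to 105 in WT duodena, so that no KO array overlapped a WT array in either tissue. Hepatocyte markers (6 genes, among them *Alb* and *Ttr*) summed to 56891 to 82621 in liver and 3317 to 4485 in duodenum, and enterocyte markers (6 genes, among them *Vil1* and *Fabp2*) to 1287 to 2526 in liver and 22153 to 25656 in duodenum. Most of the hepatocyte sum in duodenum was *Cps1* (median signal 3359, against 8.2 for *Alb* and 293 for *Ttr*). Most of the enterocyte sum in liver was *Fabp2* (median signal 1791, against 3.1 for *Vil1*). These sums therefore do not measure hepatocytes in duodenum or enterocytes in liver. In these tissue pieces, fewer cells of a type and less RNA per cell cannot be told apart. The arrays fell into 5 hybridization runs: all D2 KO livers shared a run with 1 D2 WT liver, whereas all D2 duodena were in 1 run. In B6, the 3 WT livers shared a run with 1 KO liver, and the other KO livers were in other runs. The 3 B6 WT duodena shared a run with 1 B6 KO duodenum, and 2 B6 KO duodena were in the run of the D2 duodena. Of the 2 hybridization stations, all D2 KO duodena and D2 WT 3 were at station 2, and D2 WT duodena 1 and 2 at station 1. The B6 WT duodena and B6 KO 1 were at station 2, and B6 KO duodena 2 and 3 at station 1. All livers but D2 WT 1 were at station 1. The station was not used in any fit. The β-actin 3′ to 5′ ratio, a measure of RNA and labelling quality, was 1.95 to 2.10 on D2 KO livers and 2.16 to 2.42 on D2 WT livers, against 1.93 to 2.09 on B6 KO livers and 1.98 to 1.99 on B6 WT livers.

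Before the expression values, the promoters of the 10 genes are described, because 3 of the chaperone genes and *Herpud1* carry the element through which the response is known to act. Windows of 250 bases before to 50 bases after each start site (RefSeq, GRCm38.p6) were searched on both strands for the ER stress response element ERSE (CCAAT, then 9 free bases, then CCACG), its relative ERSE-II (ATTGG, then 1 free base, then CCACG), the core of the unfolded protein response element (TGACGTG) and the ATF4 composite element (TGATGCAAT). All 10 genes had a window. ERSE was found in *Hspa5*, *Hsp90b1* and *Calr* and in 39 of all 32851 windows (0.119%). ERSE-II was found in *Herpud1* and in 12 of all windows (0.0365%), and TGACGTG in *Hspa5* and in 661 (2.01%). The composite element was found in none of the 10 genes and in 63 of all windows (0.192%). The matches with 10 bases on each side are shown in the direction of the gene, with the match in capitals; the *Calr* match and the second *Hsp90b1* match are read on the opposite strand.
Hspa5 ERSE, chr2:34772015-34772053, gene on the + strand: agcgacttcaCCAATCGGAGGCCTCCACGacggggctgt
Hspa5 TGACGTG, chr2:34771923-34771949, gene on the + strand: ggcgtagcaaTGACGTGagttgcggag
Hsp90b1 first ERSE, chr10:86705628-86705666, gene on the - strand: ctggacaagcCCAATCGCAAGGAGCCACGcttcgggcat
Hsp90b1 second ERSE, chr10:86705523-86705561, gene on the - strand: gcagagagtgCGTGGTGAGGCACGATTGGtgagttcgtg
Calr ERSE, chr8:84847065-84847103, gene on the - strand: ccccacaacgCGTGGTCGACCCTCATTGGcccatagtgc
Herpud1 ERSE-II, chr8:94386367-94386397, gene on the + strand: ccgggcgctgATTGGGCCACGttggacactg
None of these matches overlapped another. They ended 47 bases (ERSE) and 151 bases (TGACGTG) before the start of *Hspa5*, 194 and 89 before that of *Hsp90b1*, 144 before that of *Calr* and 42 before that of *Herpud1*. No match was found for *Pdia4*, *Sdf2l1*, *Dnajb9*, *Atf4*, *Ddit3* and *Creb3l3* in these windows.

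In D2 livers, loss of *Hfe* went with higher signals of the ER chaperone partner *Sdf2l1*, the chaperone *Calr* and the transcription factor *Atf4*. At an adjusted p of at most 0.1 (limma, Benjamini-Hochberg over all probe sets), 5 of the 18 member probe sets were higher and 0 were lower in D2 KO livers than in D2 WT livers, against 1.35% of all 28061 probe sets higher, 1.4% lower and 2.75% called in either direction. The median log2 fold change of the 18 was 0.32 and that of all probe sets 0.02. The members were chosen with earlier results of these data known, so that these shares are a description and not a test of the set. The chaperones and folding enzymes come first. *Sdf2l1*, which encodes an ER lumen protein that works with BiP and its DnaJ partners, had signals of 237, 173 and 195 in D2 KO livers, against 62.5, 57.4 and 109 in D2 WT livers. All 3 KO arrays lay above all 3 WT arrays, which held for 3 of the 10 genes here and for 10.7% of all genes. The means were 202 ± 32.3 in D2 KO livers and 76.4 ± 28.6 in D2 WT livers (SD, n = 3 each). The difference of the mean log2 signals was 1.45 ± 0.27 (SE, adjusted p = 0.0168), which is 2.73-fold.

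*Calr* encodes calreticulin, the calcium-binding chaperone that helps glycoproteins fold. Its brightest probe set read 1959, 2455 and 2574 in D2 KO livers, against 1434, 1561 and 1799 in D2 WT livers, again without overlap. The log2 fold change was 0.54 ± 0.13 (SE, adjusted p = 0.0565). The 2 other *Calr* probe sets gave the same picture, with log2 fold changes of 0.56 (adjusted p = 0.0439) and 0.59 (adjusted p = 0.0718), each with all KO arrays above all WT arrays; the 3 probe sets read 1 transcript and are not independent.

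*Hspa5* encodes BiP, the main ER chaperone and the brake on all 3 sensors. It read 7659.5, 5259.8 and 5522 in D2 KO livers, against 4221, 3679 and 6133 in D2 WT livers. The groups overlapped through the third WT array, and the log2 fold change of 0.41 ± 0.19 (SE, adjusted p = 0.369) did not pass. *Pdia4*, a disulfide isomerase, read 391, 344 and 495 in D2 KO livers and 252, 337 and 429.5 in D2 WT livers, with a log2 fold change of 0.29 (adjusted p = 0.553). *Dnajb9*, an ER DnaJ cofactor of BiP, read 1163, 864 and 875 in D2 KO livers and 867, 826 and 766 in D2 WT livers, with a log2 fold change of 0.23 (adjusted p = 0.461). Both genes had overlapping groups. *Hsp90b1* (GRP94, the ER member of the Hsp90 family) differed least among the chaperones, with 2285, 1845 and 2084 in D2 KO livers, 1805, 1965 and 2181 in D2 WT livers and a log2 fold change of 0.06 (adjusted p = 0.898); its second probe set gave 0.24 (adjusted p = 0.479). *Herpud1*, whose product takes part in the removal of misfolded ER proteins, read 2185, 1501 and 1449 in D2 KO livers and 1763, 1718 and 1920.3 in D2 WT livers, with a log2 fold change of -0.10 (adjusted p = 0.874). Of the 4 genes whose promoters carry ERSE or ERSE-II, *Calr* passed in this comparison, and *Hspa5*, *Hsp90b1* and *Herpud1* did not.

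Among the transcription factors, *Atf4* read 645, 713 and 600.0 in D2 KO livers, against 569.5, 464 and 445 in D2 WT livers. All KO arrays lay above all WT arrays, and the log2 fold change was 0.41 ± 0.11 (SE, adjusted p = 0.0793). The second *Atf4* probe set also separated the groups, with a log2 fold change of 0.42 that did not pass (adjusted p = 0.208). *Ddit3*, which encodes the stress-induced and pro-apoptotic factor CHOP, was dim: it read 107, 97.0 and 49.4 in D2 KO livers and 53.4, 61.4 and 76.5 in D2 WT livers. Its groups overlapped, with a log2 fold change of 0.34 (adjusted p = 0.658), and its second probe set gave -0.02 (adjusted p = 0.987). *Creb3l3* read 2389, 2009 and 2153 in D2 KO livers and 2646, 2541 and 2329 in D2 WT livers, with a log2 fold change of -0.20 (adjusted p = 0.39).

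**Figure D1:**
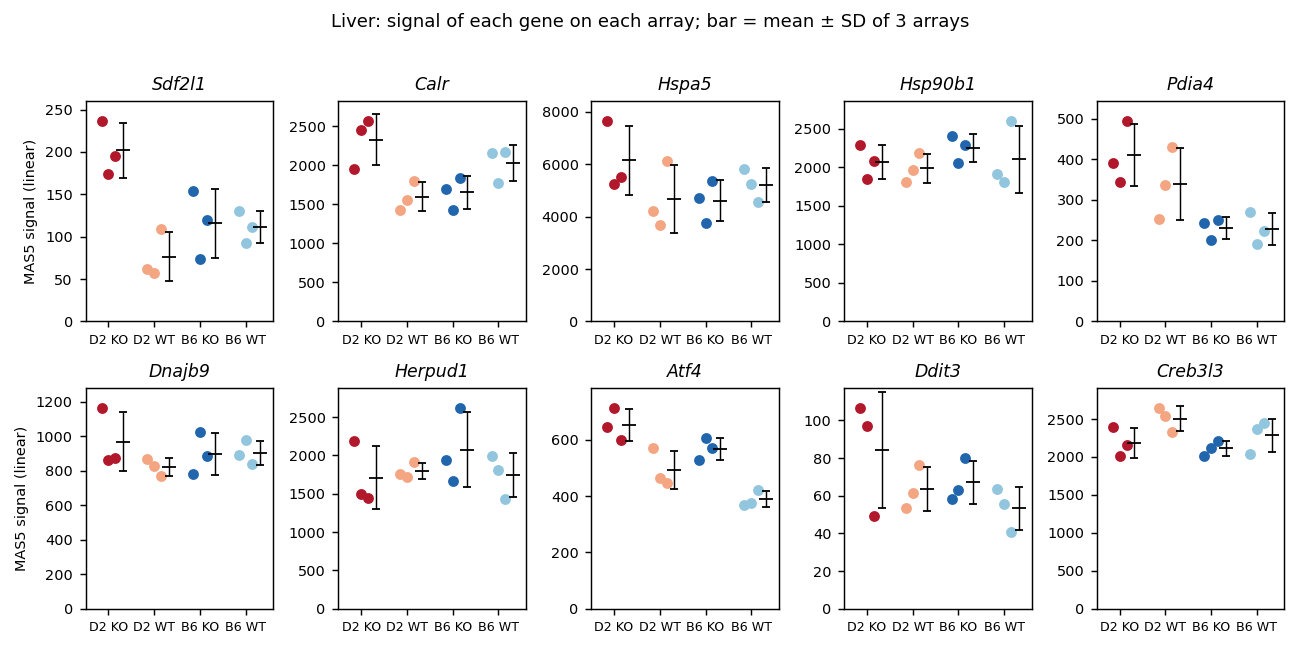
MAS5 signal (linear scale, y axis) of the representative probe set of each gene on each of the 12 liver arrays, by group (x axis); points are arrays and the bar beside them is the mean ± SD of 3 arrays. *Sdf2l1*, *Calr* and *Atf4* of D2 KO livers lie above all 3 D2 WT livers, and *Atf4* of B6 KO livers above all 3 B6 WT livers.

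These D2 liver calls were lost under some settings. With the hybridization run as a block, 0 of the 18 probe sets passed (*Sdf2l1* log2 fold change 0.87, adjusted p = 0.271; *Calr* 0.36, 0.624; *Atf4* 0.55, 0.271), and without limma's mean-variance trend 0 passed as well (*Sdf2l1* adjusted p = 0.147). The single D2 WT liver in the run of the D2 KO livers, D2 WT 3, was the highest of the 3 D2 WT livers for *Sdf2l1*, *Calr*, *Hspa5*, *Hsp90b1* and *Pdia4* and the lowest for *Atf4*; against it alone *Hspa5* differed by -0.02 on the log2 scale. *Sdf2l1* passed with any 1 of the 6 D2 livers left out (log2 fold change 1.28 to 1.74), whereas *Calr* (0.46 to 0.66) was lost without D2 WT 1, D2 WT 2, D2 KO 2 or D2 KO 3 and *Atf4* (0.34 to 0.52) without D2 WT 2, D2 WT 3, D2 KO 2 or D2 KO 3. Plasma cells are another ER-rich cell type, and their 7 markers summed to 1251 to 1352 in D2 KO livers, against 1881 to 2019 in D2 WT livers. Most of that sum was *Sdc1*, which hepatocytes also express (median signal 1719 over the 12 livers, the next highest being *Igha* at 58.7), and the log2 fold changes of the 7 ranged from -1.76 to 0.61 (median -0.12, 1 lower and 0 higher), so that the sum does not measure plasma cells in liver. The 10 pancreatic acinar markers measured summed to 44.3 to 104 in D2 KO livers and 48.4 to 102 in D2 WT livers. The part of the runs and of the β-actin ratio given above in these results was not tested beyond these values.

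In B6 livers, *Atf4* was the single member that passed. It read 529, 606 and 570.4 in B6 KO livers, against 369.6, 376 and 422 in B6 WT livers. The groups did not overlap, and the log2 fold change was 0.55 ± 0.11 (SE, adjusted p = 0.0427); the second probe set gave 0.43 (adjusted p = 0.265), also without overlap. This made 1 of the 18 probe sets higher and 0 lower, against 0.542% of all probe sets higher, 0.481% lower and 1.02% called in either direction. All KO arrays lay above all WT arrays for 1 of the 10 genes, against 8.96% of all genes. The *Atf4* call was lost without B6 WT 1, B6 WT 2 or B6 KO 2 (log2 fold change 0.50 to 0.61), with the run as a block (0.55, adjusted p = 0.216) and without the mean-variance trend (adjusted p = 0.227).

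The chaperones did not pass in B6 livers. *Sdf2l1* read 154, 73.5 and 119 in B6 KO livers and 131, 92.7 and 111 in B6 WT livers, with a log2 fold change of 0.00 (adjusted p = 0.999). *Calr* read 1702, 1423 and 1842 in B6 KO livers and 2163, 1771 and 2176 in B6 WT livers, with a log2 fold change of -0.30 (adjusted p = 0.388). That sign is opposite to the one in D2 livers. *Hspa5* read 4710.3, 3769.7 and 5349 in B6 KO livers and 5805, 5261 and 4541 in B6 WT livers, with a log2 fold change of -0.18 (adjusted p = 0.776). *Hsp90b1*, *Pdia4*, *Dnajb9*, *Herpud1*, *Ddit3* and *Creb3l3* had log2 fold changes of 0.11, 0.03, -0.02, 0.24, 0.35 and -0.11, with adjusted p-values of at least 0.646. Other probe sets had the opposite sign: the second gave -0.29 for *Hsp90b1* (adjusted p = 0.429) and -0.22 for *Ddit3* (adjusted p = 0.881), and the dimmest of *Hspa5* gave 0.39 (adjusted p = 0.729), with all KO arrays higher. The median over the 18 probe sets was -0.01, beside -0.01 over all probe sets.

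Whether the knockout effect differed between the strains was tested directly, as the D2 effect minus the B6 effect. None of the 18 probe sets passed (0 of 18, against 0.214% of all probe sets). An unadjusted p below 0.05 was found for 6, all of them positive, beside 2733 of all 28061 probe sets in either direction. The difference was 0.84 ± 0.18 (SE, adjusted p = 0.124) for *Calr*, 1.45 ± 0.38 (SE, adjusted p = 0.191) for *Sdf2l1* and 0.59 ± 0.27 (SE, adjusted p = 0.487) for the brightest probe set of *Hspa5*. The other probe sets of *Hspa5* gave 0.36 (adjusted p = 0.673) and 0.09 (0.978). For *Atf4*, the gene that passed in both strains, the difference was -0.14 (adjusted p = 0.821). The *Calr* difference lay near the threshold: between 1 and 3 *Calr* probe sets passed when the fit used log2 of the signal plus 16, with no filter or a stricter filter on low signals, without B6 KO 3 or without D2 KO 1, and *Sdf2l1* passed without D2 WT 3.

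**Figure D2:**
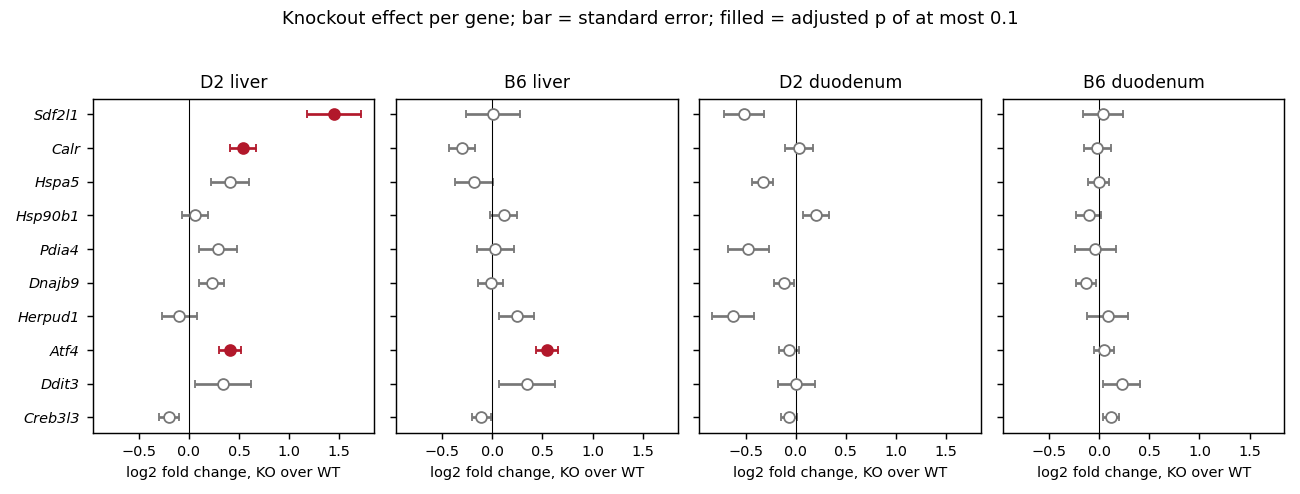
Log2 fold change, KO over WT (x axis), of the representative probe set of each gene (y axis) in D2 liver, B6 liver, D2 duodenum and B6 duodenum; bars are limma's standard errors and filled red points have an adjusted p of at most 0.1. *Sdf2l1* (1.45), *Calr* (0.54) and *Atf4* (0.41) are filled in D2 liver, *Atf4* (0.55) in B6 liver, and no gene in duodenum.

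Other genes of the response were taken from lists by branch. The lists were chosen with earlier results of these data known. Their counts beside the share of all genes, here and below, are therefore a description and not a test of the lists. Of 31 measured genes of the ATF6 and XBP1 list (chaperones, folding oxidoreductases, translocation and ER-associated degradation), 9 were higher and 0 lower in D2 KO livers than in D2 WT livers, against 1.72% of all 13006 genes higher and 1.58% lower. A total of 29 had a positive log2 fold change, and their median was 0.28, beside 0.02 over all genes. The 4 with the smallest adjusted p were *Pdia6*, a disulfide isomerase, at 1.13 ± 0.18 (SE, adjusted p = 0.00617), the translocon subunit *Sec61b* at 0.74 ± 0.14 (SE, adjusted p = 0.0169), the translocon-associated *Ssr1* at 0.57 ± 0.12 (SE, adjusted p = 0.0275) and *Derl2*, a part of the degradation machinery, at 0.41 ± 0.09 (SE, adjusted p = 0.0416). The 5 others, named after their values were seen, were the signal peptidase subunit *Sec11c*, the peptidyl-prolyl isomerase *Ppib*, the disulfide isomerase *Pdia3*, *Dnajb11* and *Edem1*, the last a part of the degradation machinery. All 9 had every KO array above every WT array, as had 10.7% of all genes, called or not. The 9 were picked by their difference on the same arrays, so that this separation adds no support. The count of 9 was 1 with the run as a block and 0 without the mean-variance trend. It was 2 to 3 without D2 WT 1, D2 WT 2, D2 KO 2 or D2 KO 3.

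The other branches were as follows in D2 livers. Of 7 genes of the sensor list, *Ern1*, which encodes IRE1, was higher at 0.84 ± 0.12 (SE, adjusted p = 0.00301), and 0 were lower. Of 24 measured ATF4 and CHOP targets, 0 were higher and 2 were lower, the lipoprotein receptor *Vldlr* at -2.31 ± 0.52 (SE, adjusted p = 0.0416) and the pseudokinase *Trib3* at -0.75 ± 0.21 (SE, adjusted p = 0.0946); the list median was 0.03. Of 11 CREBH targets, 0 were higher and 3 were lower: *Hamp*, which encodes hepcidin, at -1.64 ± 0.21 (SE, adjusted p = 0.00124), the apolipoprotein gene *Apoa4* at -0.83 ± 0.20 (SE, adjusted p = 0.0549) and *Cpt1a*, which encodes the carnitine shuttle enzyme of mitochondrial fatty acid oxidation, at -0.60 ± 0.16 (SE, adjusted p = 0.0781). Of 11 measured cytosolic heat shock genes, *Hspb1*, a small heat shock protein, was higher at 0.95 ± 0.24 (SE, adjusted p = 0.0737), and 0 were lower. *Hamp* and *Cpt1a* have many other regulators, and a list's name does not say through which of them its genes moved. The calls of these branches were not recomputed under the alternative settings, under which no member call of this comparison remained with the run as a block or without the mean-variance trend. Calls of list genes in the other comparisons were not recomputed either.

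In B6 livers, 0 genes of the ATF6 and XBP1, sensor, ATF4 and CHOP and heat shock lists passed in either direction. Of all genes 0.63% were higher and 0.515% lower, so that few or no calls would be found in lists of this size at that share. The ATF6 and XBP1 median was 0.03, beside 0.00 over all genes. Of the CREBH targets, *Apoa4* was lower in B6 KO livers at -1.69 ± 0.20 (SE, adjusted p = 0.000949). The ATF4 and CHOP targets thus gave no call upward in either strain, in both of which *Atf4* itself was higher (list median 0.11 in B6). For the difference between the strains' effects, 0 of the 31 ATF6 and XBP1 genes passed, against 0.131% of all genes higher and 0.0923% lower. Their median was 0.25. *Hamp* was the single list gene that passed, at -1.67 ± 0.29 (SE, adjusted p = 0.0401).

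**Figure D3:**
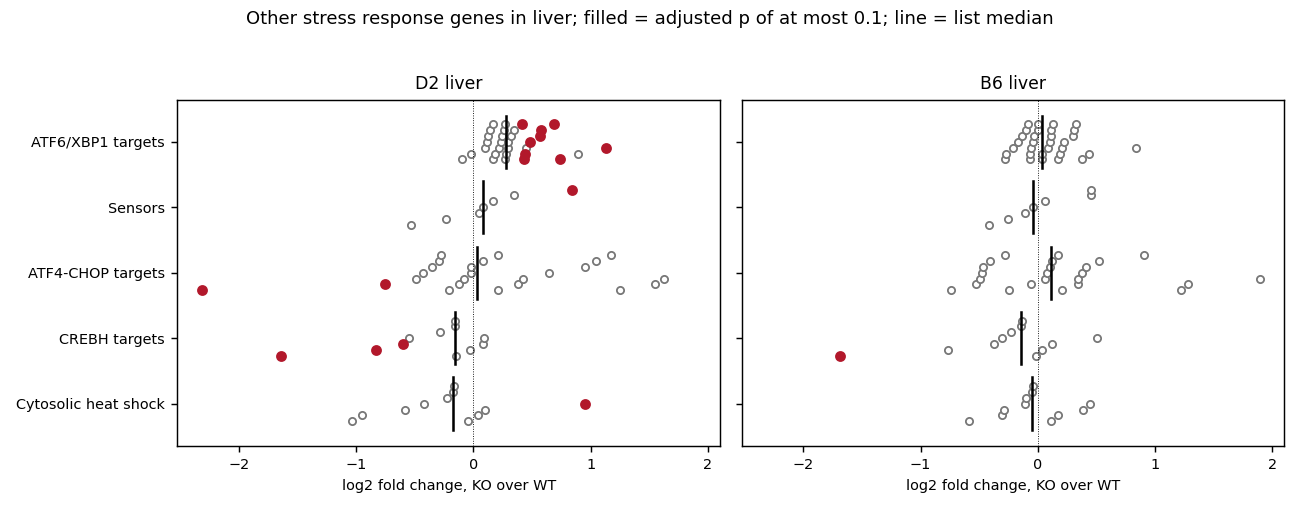
Log2 fold change, KO over WT (x axis), of every measured gene of 5 lists (rows) in D2 liver and B6 liver; filled red points have an adjusted p of at most 0.1, and the black line is the list median. The ATF6 and XBP1 genes lie to the right of 0 in D2 liver (median 0.28, 9 filled) and around 0 in B6 liver (median 0.03, 0 filled). Of all genes, 1.72% passed as higher in D2 liver and 0.63% in B6 liver.

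Between the WT strains, 0 of the 18 member probe sets differed at an adjusted p of at most 0.01, in liver (4.35% of all probe sets) or in duodenum (3.37%). At unadjusted p below 0.05 there were 5 in liver and 6 in duodenum, beside 5777 and 5085 of all 28061 probe sets. *Pdia4* had a like difference in both tissues, which did not pass in either. It read 252, 337 and 429.5 in D2 WT livers, against 269.8, 190.1 and 222 in B6 WT livers, a log2 difference of 0.56 ± 0.19 (SE, adjusted p = 0.0843). In duodenum it read 234, 216 and 152 in D2 WT mice, against 133, 129 and 139 in B6 WT mice, a log2 difference of 0.56 ± 0.20 (SE, adjusted p = 0.145) with no overlap. *Atf4* differed by 0.34 ± 0.11 (SE, adjusted p = 0.0733) in WT livers, with all D2 arrays above all B6 arrays, and by 0.12 in WT duodena (adjusted p = 0.621), where its second probe set gave -0.36 (0.223). In WT livers all D2 arrays were higher for 1 of the 10 genes, against 15.6% of all genes. In WT duodena they were higher for 1 (*Pdia4*) and lower for 1 (*Dnajb9*), against 11.5% and 11.3% of all genes. The brightest and second probe sets of *Hsp90b1* differed by -0.07 and -0.37 in WT livers and by -0.14 and 0.33 in WT duodena. For *Ddit3* in WT livers they differed by 0.27 and -0.06. *Hspa5* differed by -0.18 in WT livers and 0.00 in WT duodena, against -0.55 and -0.47 by its dimmest probe set and -0.33 in WT duodena by its second. Of the 31 ATF6 and XBP1 genes, 2 were higher and 2 lower in D2 WT livers, against 2.49% of all genes higher and 2.54% lower. In D2 WT duodena 2 were higher and 1 lower, against 1.33% and 1.98%. The other lists also had calls, in liver 1 higher and 1 lower for ATF4 and CHOP, 1 higher for CREBH and 1 lower for heat shock. In duodenum 2 CREBH targets were higher. *Hspa13*, an ER-associated Hsp70 relative, was higher in D2 WT mice in both tissues, at 1.98 ± 0.14 (SE, adjusted p = 3.37e-07) in liver and 1.80 ± 0.18 (SE, adjusted p = 4.43e-05) in duodenum.

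In duodenum, 0 of the 18 member probe sets passed in D2 KO mice (0.378% of all probe sets) and 0 in B6 KO mice (0.0107%), and 0 for the difference between the strains (0.0143%). At unadjusted p below 0.05 there were 7 in D2, 0 in B6 and 5 for the difference, beside 3321, 1588 and 2930 of all 28061 probe sets. In D2 the brightest probe sets of *Hspa5*, *Herpud1*, *Sdf2l1* and *Pdia4* had negative log2 fold changes. *Hspa5* read 3381, 2676 and 2990.5 in D2 KO duodena, against 3893, 4083 and 3384 in D2 WT duodena, with no overlap (all KO arrays lower, as for 7.55% of all genes) and a log2 fold change of -0.33 ± 0.11 (SE, adjusted p = 0.257). Its other probe sets disagreed, at -0.09 (adjusted p = 0.847) and, for the dimmest, 0.36 (adjusted p = 0.422), both with overlap, so that no direction is given for *Hspa5* in D2 duodenum. *Herpud1* read 592, 308 and 368 in D2 KO duodena, against 537, 565 and 813 in D2 WT duodena, a log2 fold change of -0.63 ± 0.21 (SE, adjusted p = 0.276). *Sdf2l1* read 255, 148 and 170.2 in D2 KO duodena, against 332, 271 and 208 in D2 WT duodena, a log2 fold change of -0.52 ± 0.20 (SE, adjusted p = 0.331). For *Herpud1* and *Sdf2l1* the first KO array lay among the WT arrays and the other 2 below them.

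**Figure D4:**
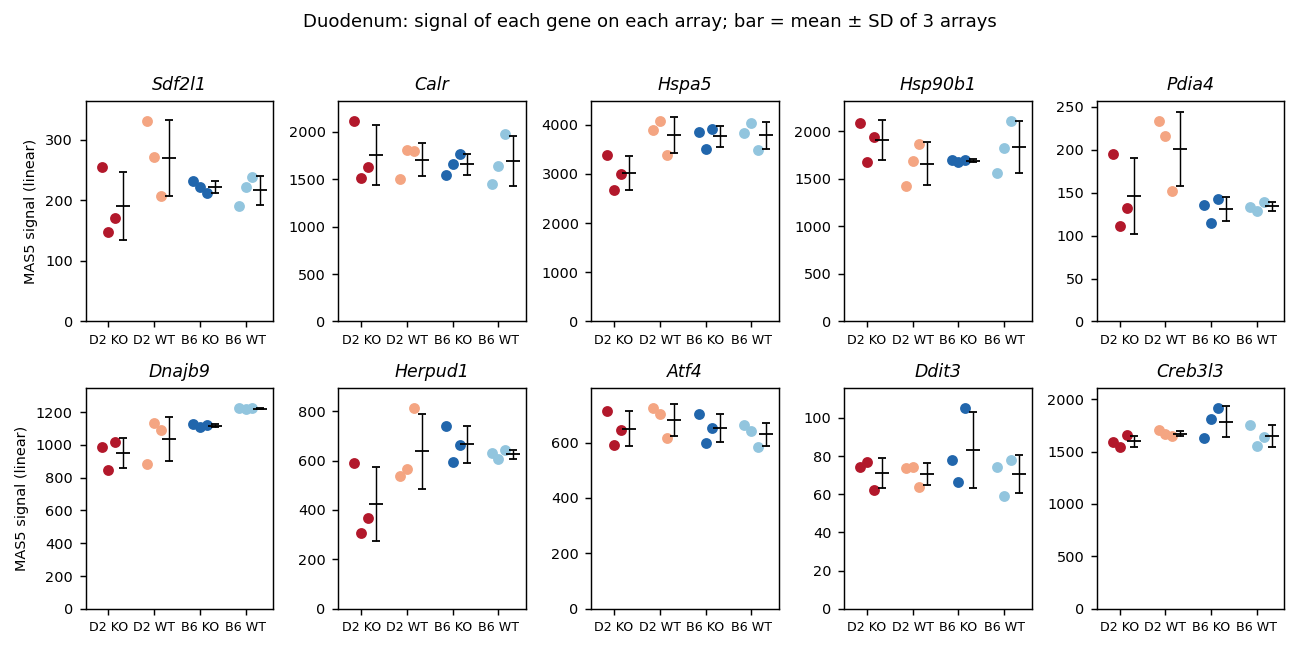
MAS5 signal (linear scale, y axis) of the representative probe set of each gene on each of the 12 duodenum arrays, by group (x axis); points are arrays and the bar beside them is the mean ± SD of 3 arrays. In D2 KO duodena the first point lies among the D2 WT points for *Sdf2l1*, *Pdia4* and *Herpud1*, and the other 2 lie below them.

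*Pdia4* followed the same order, with 195, 111 and 133 in D2 KO duodena, 234, 216 and 152 in D2 WT duodena and a log2 fold change of -0.47 (adjusted p = 0.381). *Calr* (0.03), *Dnajb9* (-0.12), *Atf4* (-0.07), *Ddit3* (0.01) and *Creb3l3* (-0.07) had log2 fold changes with adjusted p-values of at least 0.692, and the second probe set of *Atf4* gave 0.35 (adjusted p = 0.38). The 2 probe sets of *Hsp90b1* disagreed: the brighter one read 2093, 1678 and 1943 in D2 KO duodena and 1421, 1689.8 and 1869 in D2 WT duodena, a log2 fold change of 0.20 (adjusted p = 0.569). The other read 917, 759.7 and 763 in D2 KO duodena and 1206, 1144 and 1142 in D2 WT duodena, a log2 fold change of -0.52 ± 0.11 (SE, adjusted p = 0.106), with all KO arrays lower. No direction is therefore given for *Hsp90b1* in duodenum.

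The duodenal pieces also differed in signals of pancreatic acinar cells, which secrete digestive enzymes. The 10 acinar markers measured, among them *Cpa1*, *Cpb1* and *Cel*, summed to 90890 in D2 KO 1 but to 2075 in D2 KO 2 and 2595 in D2 KO 3, against 25892 to 61834 in D2 WT duodena, and all 10 had negative log2 fold changes (median -3.08, 0 of 10 passing). Relative to the mean of the 12 duodena, the acinar markers deviated by 1.88 in D2 KO 1, -4.96 in D2 KO 2 and -3.60 in D2 KO 3 on the log2 scale. The 7 chaperone and degradation members deviated by 0.15, -0.41 and -0.20 in the same arrays and by -0.05 to 0.16 in the 9 others. The next lowest acinar deviation, -1.32 in B6 WT 3, went with a chaperone deviation of 0.12. Plasma cell markers summed to 18709 in D2 KO 1, 11495 in D2 KO 2 and 10194 in D2 KO 3, against 16660 to 18599 in D2 WT duodena, and Paneth cell markers to 11980, 6967 and 4904, against 10656 to 16268. Markers of goblet cells, which also secrete protein, summed to 29586, 26514 and 27088 in the same KO arrays, against 24900 to 28147 in D2 WT duodena. Without D2 KO 2 and D2 KO 3, the log2 fold changes of the brightest probe sets were -0.16 for *Hspa5*, -0.08 for *Herpud1*, -0.06 for *Sdf2l1* and -0.01 for *Pdia4*, from a single KO array. Without D2 KO 1, 6 probe sets passed, all lower: *Herpud1* (-0.90 and -0.85), *Sdf2l1* (-0.74), *Pdia4* (-0.70), the brightest of *Hspa5* (-0.42) and the second *Hsp90b1* probe set (-0.61). The β-actin 3′ to 5′ ratio was 1.36 to 1.49 in D2 KO duodena and 1.25 to 1.35 in D2 WT duodena, without overlap. The part of the acinar, plasma and Paneth cell signals, of the RNA ratio and of the hybridization station in the chaperone values was not tested.

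**Figure D5:**
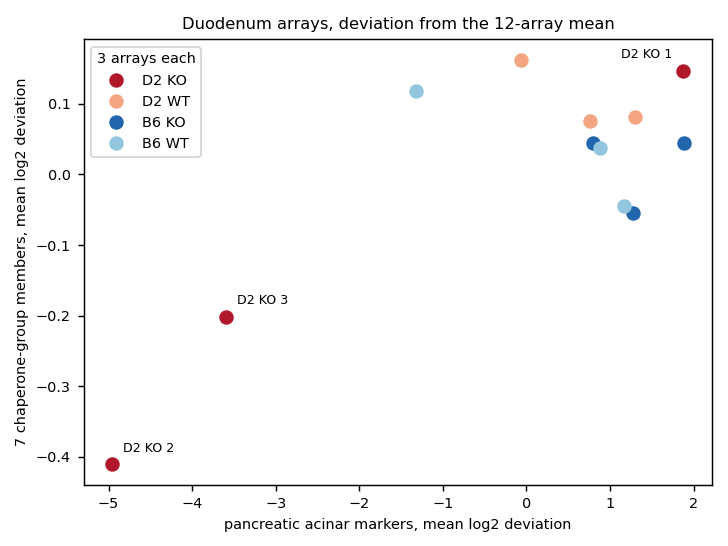
Mean log2 deviation of the 7 chaperone and degradation members (y axis) against that of the pancreatic acinar markers (x axis) for the 12 duodenum arrays, each from the mean of the 12; colours are the 4 groups of 3 arrays. D2 KO 2 (-4.96, -0.41) and D2 KO 3 (-3.60, -0.20) lie apart from the 10 others, and D2 KO 1 (1.88, 0.15) does not.

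No list gene passed in D2 or B6 KO duodena. Of all genes, 0.331% were higher and 0.154% lower in D2 KO duodena, and 0% were higher and 0.00769% lower in B6 KO duodena. Of the 31 ATF6 and XBP1 genes, 0 passed in D2 KO duodena and 4 lay above 0 on the log2 scale; the list median was -0.28, beside 0.01 over all genes. Of the 24 ATF4 and CHOP targets, 0 passed, with a median of -0.30. In B6 duodena 0 genes of either list passed and the medians were 0.00 and -0.04. In B6 duodena *Hspa5* read 3848, 3514 and 3922 in B6 KO duodena and 3828, 4037 and 3481 in B6 WT duodena, and *Sdf2l1* read 232, 222 and 212 in B6 KO duodena and 191, 222 and 238 in B6 WT duodena. The second probe set of *Atf4* gave -0.32 (adjusted p = 0.874), against 0.05 by the brightest. *Dnajb9* did not overlap, at 1127, 1107 and 1122 in B6 KO duodena and 1226, 1218 and 1224 in B6 WT duodena, a log2 fold change of -0.13 (adjusted p = 0.893). All KO arrays were lower for this 1 of the 10 genes, against 6.47% of all genes.

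Levels were then compared between the tissues of WT mice, as liver minus duodenum at an adjusted p of at most 0.01. The acinar markers summed to 25892 to 61834 in D2 WT duodena and 11700 to 57371 in B6 WT duodena. In liver they summed to 48.4 to 102 in D2 WT and 78.2 to 203 in B6 WT mice. The part of these ER-rich cells in the tissue differences was not tested. In D2 WT mice 6 of the 18 probe sets were higher and 4 lower in liver, and in B6 WT mice 5 were higher and 5 lower, against 44.4% of all probe sets called in D2 (18.2% higher and 26.2% lower) and 44.7% in B6 (18.5% higher and 26.2% lower), so that the share of members called was close to that of the array. *Herpud1* was the member most enriched in liver. It read 1763, 1718 and 1920.3 in D2 WT livers, against 537, 565 and 813 in D2 WT duodena, a log2 difference of 1.52 ± 0.21 (SE, adjusted p = 2.58e-06), and the difference was 1.46 in B6 WT mice (adjusted p = 4.22e-06). *Creb3l3*, known as a factor of liver and small intestine, was 1.5-fold higher in liver than in duodenum of D2 WT mice (log2 difference 0.58, adjusted p = 3.73e-06) and 1.39-fold in B6 WT mice (0.47, adjusted p = 5.44e-05). *Pdia4* differed by 0.75 in D2 WT mice and 0.75 in B6 WT mice (adjusted p = 0.00471 and 0.0047).

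*Sdf2l1* had the opposite direction. It read 62.5, 57.4 and 109 in D2 WT livers, against 332, 271 and 208 in D2 WT duodena, a log2 difference of -1.86 ± 0.26 (SE, adjusted p = 2.91e-06). In B6 WT mice it read 131, 92.7 and 111 in liver, against 191, 222 and 238 in duodenum, a log2 difference of -0.97 ± 0.26 (SE, adjusted p = 0.00331). *Atf4* was lower in liver by both of its probe sets in both strains, at -0.47 in D2 WT mice and -0.69 in B6 WT mice for the brighter one and -0.67 and -1.17 for the other. *Dnajb9* was lower in liver in B6 WT mice (-0.44, adjusted p = 0.00296) and did not pass in D2 WT mice (-0.33, adjusted p = 0.0208). The *Calr*, *Ddit3* and brightest *Hspa5* and *Hsp90b1* probe sets did not pass in either strain, nor did the second of *Ddit3* (-0.51 in D2 WT mice, against -0.16 by the brightest). Other probe sets of *Hspa5* and *Hsp90b1* did: the dimmest of the 3 probe sets of *Hspa5* was lower in liver (-1.60 in D2 WT and -1.52 in B6 WT mice), the second one was higher in D2 WT mice (0.55), and the dimmer probe set of *Hsp90b1* was higher in both strains (0.59 in D2 WT and 1.29 in B6 WT mice). No run held livers and duodena of the same WT strain, and with the run as a block 2 member probe sets passed in D2 WT and 5 in B6 WT mice. Some calls were lost without certain arrays: *Pdia4* was lost in D2 WT mice without liver 2, liver 3 or duodenum 3 and in B6 WT mice without liver 1, liver 3 or any 1 of the 3 duodena, *Sdf2l1* in B6 WT mice without liver 2, duodenum 2 or duodenum 3, *Dnajb9* in B6 WT mice without liver 1 or liver 3, and the second probe set of *Hspa5* in D2 WT mice without liver 3, duodenum 1 or duodenum 3.

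The D2 knockout effect itself was also compared between the tissues, as the liver effect minus the duodenum effect. Of the 18 probe sets, 2 passed, both higher, against 1.12% of all probe sets called, 0.478% higher and 0.641% lower. They were *Sdf2l1*, at 1.97 ± 0.37 (SE, adjusted p = 0.0206), and the second *Hsp90b1* probe set, at 0.76 ± 0.18 (SE, adjusted p = 0.0666); the brightest *Hsp90b1* probe set gave -0.14 (adjusted p = 0.833). By their brightest probe sets, *Hspa5* differed by 0.74 (adjusted p = 0.179), *Pdia4* by 0.76 (0.297), *Calr* by 0.51 (0.303) and *Atf4* by 0.48 (0.169). The other probe sets of *Hspa5* gave 0.30 (adjusted p = 0.656) and 0.12 (0.943), and the second of *Atf4* gave 0.07 (0.938). Without both duodena D2 KO 2 and D2 KO 3, the *Sdf2l1* difference was 1.51 (adjusted p = 0.309) and that of *Hsp90b1* 0.58 (adjusted p = 0.541), and 0 probe sets passed. The *Hsp90b1* call was also lost without any 1 of 7 of the 12 D2 arrays: liver D2 KO 3, D2 WT 1 and D2 WT 2, and duodenum D2 KO 2, D2 KO 3, D2 WT 1 and D2 WT 2. Of the 31 ATF6 and XBP1 genes, 6 passed, all higher (*Sec61b*, *Pdia3*, *Fkbp2*, *Ppib*, *Dnajb11* and *Pdia6*, named after their values were seen), against 0.669% of all genes higher, with a list median of 0.52 beside 0.02. For B6, 0 of the 18 member probe sets passed (0.139% of all probe sets), and 2 had an unadjusted p below 0.05, beside 2370 of all 28061. The WT strain difference, compared between the tissues in the same way, passed for the second *Hsp90b1* probe set alone, at -0.70 ± 0.18 (SE, adjusted p = 0.049). This was 1 of 18, against 3.46% of all probe sets called, 1.74% higher and 1.73% lower, and the call was lost without liver D2 WT 2, liver B6 WT 3, duodenum D2 WT 1 or duodenum B6 WT 3.

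As a description of which genes varied alongside, the mean standardized log2 signal of the 7 chaperone and degradation members was correlated with other genes within each tissue (12 arrays). These were the non-member genes whose third-highest signal in that tissue was at least 100. In liver the most alike were *Manf* (Pearson's r = 0.93), which encodes an ER stress-induced secreted protein, *Dnajb11* (0.88), an ER DnaJ cofactor of BiP, *Scamp3* (0.84), *Ints8* (0.83) and *Plcxd2* (0.80). Within the 7, *Hspa5* (0.90) and *Sdf2l1* (0.90) lay closest to that mean and *Dnajb9* (0.35) and *Herpud1* (0.36) farthest. Each of the 7 is itself part of the mean, so that the r values of members and of other genes are not comparable. In duodenum the most alike were *Mthfd2* (0.90), *Xbp1* (0.90), *Asns* (0.89), *Clu* (0.89) and *Srm* (0.88), and the closest of the 7 was *Herpud1* (0.79). The 12 arrays of a tissue share the groups, runs and tissue make-up given above, and these values carry no test.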

How the data were processed

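RNA of liver and duodenum of 12 mice was hybridized to 24 Mouse Genome 430 2.0 arrays. The values are MAS5 signal intensities deposited by the authors, 1 per probe set, scaled by them to a target mean of 100; detection calls and single-probe intensities were not used here, and the S-scores of the study's methods cannot be computed from these values. The experiment files that the authors deposited beside them give times and stations of hybridization and hold no expression values (they were used as other information only), and arrays started within 30 minutes of a run's first array were taken as 1 run. The number of arrays limits the precision.

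Log2 signals were fitted with limma 3.58.1 in R 4.3.3 (lmFit, contrasts, eBayes with a mean-variance trend), on the 12 arrays of a tissue or, between tissues, on all 24, with Benjamini-Hochberg adjustment over the 28061 probe sets whose third-highest signal in either tissue was at least 20. AFFX control probe sets (64) were left out. Adjusted p-values of at most 0.1 were called for knockout effects and of at most 0.01 for WT strains, the false discovery rates of the study's methods. The study's added cuts on the mean S-score were not applied. For differences between effects 0.1 was chosen here, and for tissues 0.01. The mice of a group are separate animals.

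Probe sets were named from the platform's probe-to-gene table (34958 with 1 symbol, 932 with several, 9211 with none). A gene was represented by its single-symbol probe set with the highest mean log2 signal. Of each list, up to 4 genes with the smallest adjusted p of a comparison were named; for likeness, the 5 genes with the highest Pearson's r in each tissue. The members and lists were chosen with earlier results of these data known, from general knowledge of the pathway, and the lists of branches overlap in *Fgf21* and *Ero1a*. List genes matched were 31 of 32 for ATF6 and XBP1, 7 of 7 for the sensors, 24 of 25 for ATF4 and CHOP, 11 of 11 for CREBH and 11 of 12 for cytosolic heat shock; marker lists matched 6 hepatocyte, 6 enterocyte, 10 acinar, 7 plasma cell, 7 goblet, 4 Paneth and 6 macrophage genes. The fit was tested on simulated data. Promoter windows were read from RefSeq (GRCm38.p6), and figures were drawn with matplotlib 3.10.9 in Python 3.11.15.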

Additional observations from a re-analysis of the deposited data

Results flagged for a closer look

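The effect of the D2 knockout differed between liver and duodenum, in the test of the difference itself, for 2 member probe sets. The difference was 1.97 on the log2 scale for *Sdf2l1* (adjusted p = 0.0206), and 0.76 for the dimmer *Hsp90b1* probe set (adjusted p = 0.0666). The WT strain difference of the same *Hsp90b1* probe set also differed between the tissues, by -0.70 (adjusted p = 0.049).

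Of the listed genes named in the report, the D2 knockout effect differed between liver and duodenum for *Pdia6* (1.49, adjusted p = 0.0336), *Sec61b* (1.03, 0.0164), *Ppib* (1.06, 0.0294), *Pdia3* (0.85, 0.0191), *Dnajb11* (0.74, 0.0332), *Fkbp2* (0.53, 0.0282), *Ern1* (0.88, 0.0268) and *Hamp* (-3.20, 0.0337). The B6 knockout effect differed between the tissues for *Apoa4* (-1.85, adjusted p = 0.00237). The knockout effect in liver differed between D2 and B6 for *Hamp* (-1.67, adjusted p = 0.0401). The WT strain difference differed between liver and duodenum for *Derl2* (-0.44, adjusted p = 0.0622), *Fkbp2* (-0.39, 0.0563) and *Hspb1* (-2.87, 3.86e-05). These differences of list genes were not recomputed under other settings. Without the duodena D2 KO 2 and D2 KO 3, whose acinar markers lay lowest, the D2 knockout effect passed for neither member probe set.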

How the results depend on the processing

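No called member value changed direction under the alternatives run: 361 kept direction and call and 94 kept the direction but lost the call. Of 198 member values recomputed without D2 KO arrays in duodenum D2 KO and in the D2 knockout effect between tissues, 15 changed sign, none of them called before or after (adjusted p of at least 0.514). The liver D2 KO count of 5 member probe sets was 2 at an adjusted p of at most 0.05, 3 when only the arrays compared were fitted, 0 without the mean-variance trend, 0 with the run as a block and 1 to 5 with each array left out in turn; over all probe sets the same comparison gave 773 calls, 86 without the trend and 109 with the run as a block. The count of 9 ATF6 and XBP1 genes in it was 0 without the trend, 1 with the run as a block and 2 to 10 with each array left out. The liver B6 KO count of 1 was 0 without the trend, 0 with the run as a block and 0 to 1 with each array left out. The liver difference between strains (0 member probe sets) gave 1 on log2 of the signal plus 16, 1 with no filter, 1 with a signal minimum of 100 and 0 to 3 with each array left out. The duodenum D2 KO count of 0 was 1 on log2 of the signal plus 16, 1 with a signal minimum of 100 and 0 to 6 with each array left out, and the duodenum difference between strains (0) was 0 to 3 with each array left out. With the run as a block the 10 tissue calls of D2 WT mice became 2 and the 10 of B6 WT mice became 5; with each array left out they were 8 to 10 and 8 to 9. The D2 knockout effect between tissues (2) gave 1 at an adjusted p of at most 0.05, 1 without the trend, 1 when only the arrays compared were fitted, 0 with the run as a block, 1 to 3 with each array left out and 0 without both duodena D2 KO 2 and D2 KO 3. The WT strain difference between tissues (1) gave 0 without the trend, 0 with the run as a block and 0 to 1 with each array left out. The cause of these changes was not tested.

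Arrays with the same replicate number did not deviate together (r of -0.02 to 0.05 over 18 pairs in liver, -0.20 to 0.12 over 18 pairs in duodenum and -0.02 to 0.03 over 12 pairs of liver and duodenum). Such values cannot show whether liver and duodenum of 1 number came from the same mouse. The main fit between tissues treated the arrays as separate, although both tissues came from the same 12 mice. With the replicate number as a block the liver D2 KO count was 4, since *Atf4* was lost (adjusted p = 0.112), and the liver difference between strains was 1, with *Calr* gained; the other member counts were unchanged by the block. Leaving out both duodena and running the alternatives on the ATF6 and XBP1 list were chosen after seeing the data. Groups of 3 arrays leave 3 against 3, dim probe sets such as those of *Ddit3* lie near the minimum signal, and the run can be separated from genotype in D2 liver only through 1 WT array.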
